A study of Homo sapiens with 5 samples.

Results

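Matrix metalloproteinases (MMPs) and the tissue inhibitors of metalloproteinases (TIMPs) were examined for binding of the transcription factors (TFs) Fra-1, MYC and E2F1. The 10 genes were chosen by name, as enzymes and inhibitors of matrix degradation, out of 20098 protein-coding genes on chromosomes 1 to 22 and X. They were MMP1, MMP2, MMP3, MMP7, MMP9, MMP10, MMP13, MMP14, TIMP1 and TIMP2. Chromatin immunoprecipitation and sequencing (ChIP-Seq) had been performed in LM2 cells, a derivative of the human breast cancer line MDA-MB-231 that metastasizes to the lung. No treatment is given for these cells in the sample labels. Each TF was assayed with its own antibody in 1 library, and the same input DNA served as the control for all 3. Hence there was no replicate spread, no test between TFs was possible, and counts of peaks are given beside the same counts over all protein-coding genes.

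MMPs are zinc-dependent endopeptidases that are made as inactive precursors and together can cleave most components of the extracellular matrix. TIMPs are secreted proteins that occupy the active site of these enzymes, so that the balance of both determines how much matrix is degraded. Fra-1, the product of FOSL1, pairs with Jun proteins to form AP-1, and an AP-1 site close to the start is a known feature of several MMP promoters. MYC pairs with MAX on E-boxes, and E2F1 is best known as a regulator of cell-cycle genes.

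The promoters of 5 of the 10 genes had an AP-1 site, against 3.57% of 19819 canonical promoters (708). The site was searched as TGACTCA on both strands (TGAGTCA on the other strand), from 250 bp before to 50 bp after the canonical transcriptional start site (TSS). The sequences of MMP7 and MMP10 are given because MMP7 had the site without a Fra-1 peak and MMP10 a Fra-1 peak without an exact match to the site. They are the bases directly upstream of the TSS, read in the direction of transcription from GRCh37 (hg19), with the AP-1 site in capitals.
MMP7, chr11:102401479-102401578, minus strand: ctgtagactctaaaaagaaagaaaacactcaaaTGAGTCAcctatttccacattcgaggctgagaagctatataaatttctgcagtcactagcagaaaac
MMP10, chr11:102651360-102651459, minus strand: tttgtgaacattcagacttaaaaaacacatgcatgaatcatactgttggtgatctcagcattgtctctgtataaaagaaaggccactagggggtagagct

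The site of MMP7 lay 61 to 67 bp upstream of its TSS. At the same distance the MMP10 sequence has tgaatca, a near match to TGAGTCA. It was not counted, because only exact matches were searched. The E-box CACGTG was found in 8.76% of the canonical promoters and in none of the 10 genes. The E2F sites TTTCCCGC and TTTGGCGC and TTTCGCGC and TTTGCCGC, taken as 1 motif on both strands, were found in 4.38% of promoters and also in none of the 10. A match describes the letters in this window only.

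Most promoters with an AP-1 site had no Fra-1 peak in these cells. Of the 708 promoters with a site, 147 (20.8%) had a Fra-1 peak in the window from 2 kb upstream to 2.5 kb downstream of the canonical TSS, and in 111 (15.7%) a peak covered the site. Of the 19111 promoters without a site, 1300 (6.80%) had a Fra-1 peak. Thus MMP7, with a site and no peak, was like most promoters with a site. MMP10, with a peak and no exact match to the site, was among the 1300.

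The depth and the number of peaks differed between libraries. After removal of repeated tags, MACS2 had between 12931227 tags (Fra-1) and 23853621 tags (MYC), against 10758036 for the input. On the chromosomes used, Fra-1 had 17311 peaks, MYC 4857 and E2F1 36901. Therefore the count for each TF is read against its own share over all genes, and the number of genes is not compared directly between TFs. Each peak is given by its fold enrichment, that is, fragments piled up at the summit divided by the local input background, each with 1 added. The cells were not checked against marker genes, since peaks measure binding and not expression.

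A promoter was defined as 2 kb upstream to 2.5 kb downstream of any annotated TSS. A Fra-1 peak was called in the promoters of 3 of the 10 genes (MMP1, MMP10 and TIMP2), against 13.2% of all protein-coding genes. No MYC peak was called in any of the 10 promoters, against 17.8% of all genes. E2F1 peaks were called in 4 promoters (MMP1, MMP14, TIMP1 and TIMP2), against 61.3% of all genes.

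Taken by combination, MMP1 and TIMP2 had promoter peaks of Fra-1 and E2F1 without MYC, a pattern of 7.67% of all genes. MMP10 had Fra-1 only, which 0.896% of genes showed (180). MMP14 and TIMP1 had E2F1 only, as did 35.8% of genes. MMP2, MMP3, MMP7, MMP9 and MMP13 had no promoter peak of the 3 TFs, as was the case for 37.8% of genes.

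Gene bodies and flanks were then examined. Within the annotated gene, 2 genes had a Fra-1 peak (MMP10 and TIMP2, against 24.2% of all genes), 1 had a MYC peak (TIMP2, against 16%) and 4 had an E2F1 peak (MMP1, MMP14, TIMP1 and TIMP2, against 63.2%). The peak counted within MMP10 was its promoter peak, with the summit 33 bp upstream of the TSS. It covered 0.0395% of the gene. Within the gene and 50 kb on either side, 8 genes had a Fra-1 peak, against 55.8% of all genes, and MMP2 and TIMP1 had none. In this wider span 3 genes had a MYC peak (MMP9, MMP14 and TIMP2), against 39.5%. All genes but MMP7 had an E2F1 peak there (9 genes, against 83%). These spans held 22 Fra-1 peaks, 11 MYC peaks and 41 E2F1 peaks, each counted once where flanks of neighbouring genes overlap.

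**Figure D1:**
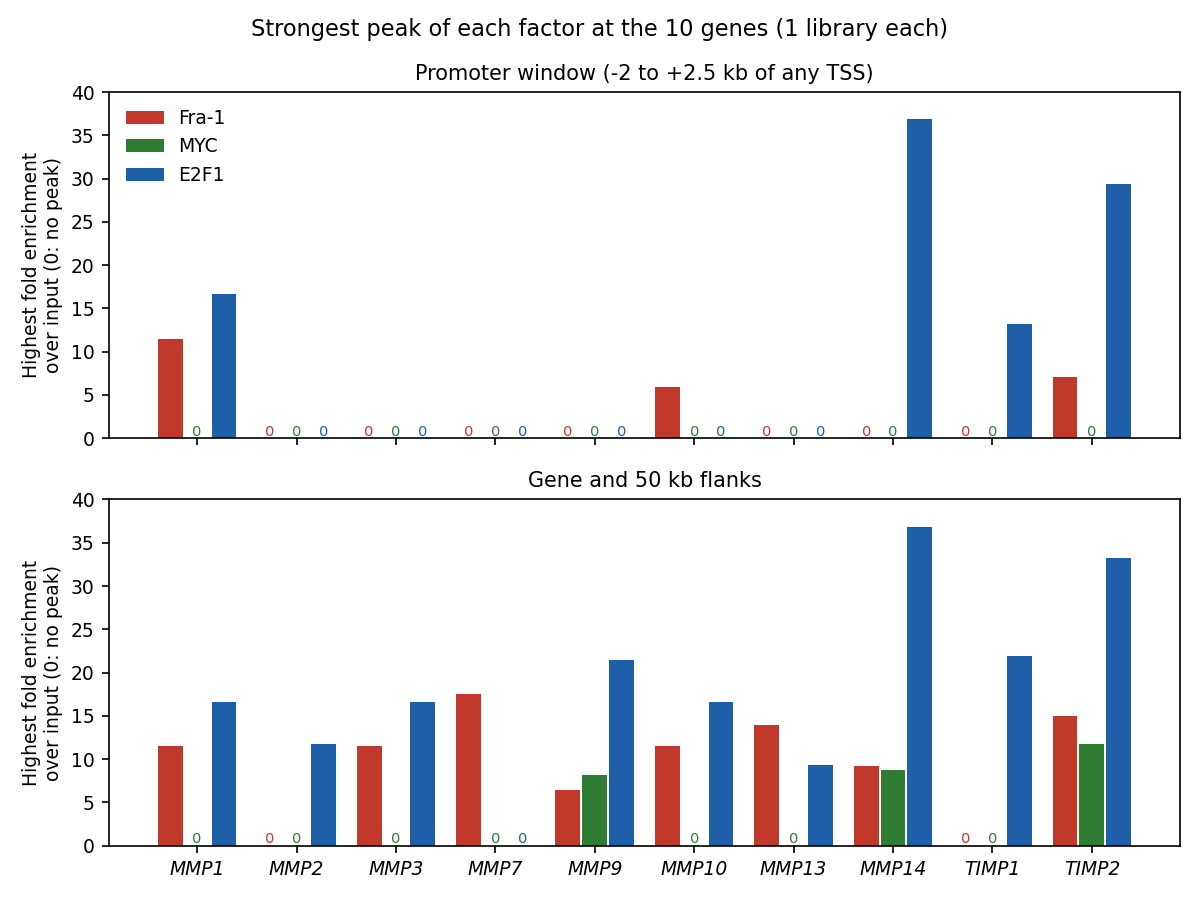
Highest fold enrichment over input of the Fra-1, MYC and E2F1 peaks at each of the 10 genes, in the promoter window of any TSS (upper panel) and in the gene with 50 kb flanks (lower panel); 0 means that no peak was called, and each bar is 1 library. MYC had no bar in the upper panel, and MMP14 had the highest E2F1 value, 36.8.

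Peak strength was also compared with that over the genome. Fold enrichments of the 22 Fra-1 peaks ranged from 4.36 to 17.5 with a median of 6.40, while the median over all Fra-1 peaks was 8.24. The 11 MYC peaks ranged from 5.41 to 11.8 with a median of 6.95 (6.67 over all MYC peaks). The 41 E2F1 peaks ranged from 3.53 to 36.8 with a median of 11.01 (8.88 over all E2F1 peaks).

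MMP1 encodes interstitial collagenase, which cleaves fibrillar collagens, and MMP1 and MMP2 are both known from work on lung metastasis of this cell line. The gene lies at chr11:102660132-102668891 on the minus strand. A Fra-1 peak at chr11:102668909-102669139 had its summit 151 bp upstream of the canonical TSS, with a pileup of 23, a fold enrichment of 11.5 and a −log10 q of 19.4. This fold enrichment was higher than that of 75.4% of all Fra-1 peaks.

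E2F1 was called over the same start and along the gene. The E2F1 peak at chr11:102666987-102669153 had its summit 74 bp downstream of the TSS and 225 bp from that of Fra-1, with a pileup of 98, a fold enrichment of 16.7 and a −log10 q of 85.2. At 2167 bp it was wide compared with the median of 290 bp over all E2F1 peaks. The pileup and fold enrichment at this peak corresponded to a local background of 4.95. Over all E2F1 peaks the median background was 0.996 and the 90th percentile 2.97. The other E2F1 peaks within MMP1 had local backgrounds between 0.980 and 2.87, and the Fra-1 peak at the start had 1.09. The part of the background in the number and width of these peaks was not tested.

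Another 5 E2F1 peaks lay within MMP1, with fold enrichments between 4.31 and 12.1. The strongest of them, at chr11:102660079-102660754, had its summit 8.70 kb downstream of the TSS, in an exon at the end of the gene. An E2F1 peak 4.38 kb upstream had the lowest fold enrichment of any at the 10 genes, 3.53. Together the E2F1 peaks covered 50.9% of the gene body. Of the 20098 genes, 203 (1.01%) had a share as high, as did 18 (0.576%) of 3125 genes within 1.5 times its length, whose median was 1.66%. Only the peak at the TSS and the one 2.38 kb downstream overlapped the promoter window of the canonical TSS, and the other promoter calls at MMP1 rested on alternative starts within the gene. No MYC peak was called within 50 kb of MMP1.

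**Figure D2:**
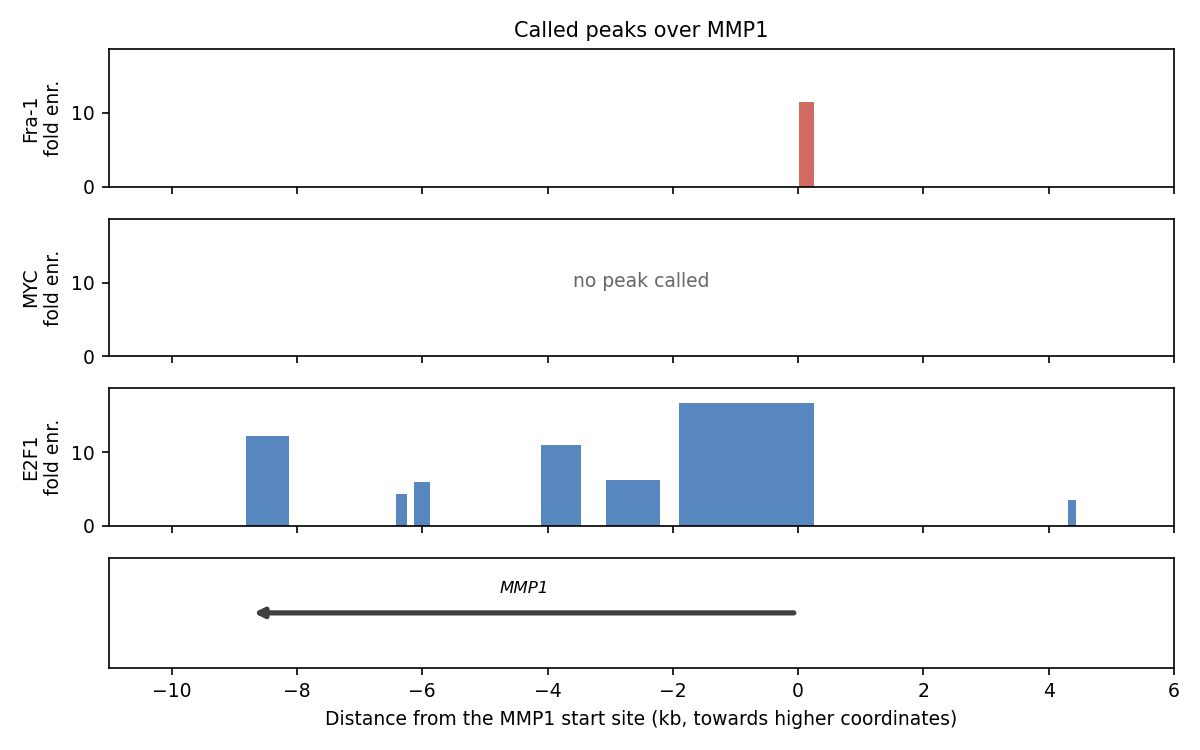
Called peaks over MMP1 and its surroundings, with distance from the canonical TSS in kb on the horizontal axis (transcription runs to the left) and fold enrichment over input on the vertical axis; the width of each bar is the width of the peak. The single Fra-1 peak (11.5) sits at the start, while 6 E2F1 peaks lie across the gene.

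MMP13 (collagenase-3, chr11:102813724-102826461, minus strand) had no peak in the gene or its promoter. The nearest peaks lay 40.7 kb upstream, where Fra-1 and E2F1 were called at the same place. The Fra-1 peak at chr11:102867019-102867303 had a pileup of 54, a fold enrichment of 14.0 and a −log10 q of 43.7. The E2F1 peak at chr11:102866951-102867323 had a pileup of 36 and a fold enrichment of 9.34.

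The 2 stromelysins are closely related enzymes that cleave proteoglycans, laminin and other non-fibrillar matrix proteins. MMP10 (stromelysin-2, chr11:102641233-102651359, minus strand) had a Fra-1 peak at chr11:102651356-102651477, with its summit 33 bp upstream of the TSS, a pileup of 17, a fold enrichment of 5.92 and a −log10 q of 7.54. It was the only promoter peak at MMP10, and its fold enrichment was higher than that of only 21.0% of all Fra-1 peaks. No exact match to the AP-1 site was found within 50 bp of its summit. Fra-1 peaks 18.1 kb and 20.1 kb downstream of the TSS had fold enrichments of 6.32 and 4.36.

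MMP3 (stromelysin-1, chr11:102706532-102714340, minus strand) had no promoter peak, but 3 Fra-1 peaks lay between 2.94 kb and 7.92 kb upstream. The nearest had a fold enrichment of 4.77. The peak 5.89 kb upstream had a fold enrichment of 7.16 and an AP-1 site 31 bp from its summit. The farthest, at chr11:102722165-102722345, had a pileup of 48 and a fold enrichment of 6.16, with an AP-1 site 2 bp from its summit and a local background of 6.96. No E2F1 peak overlapped any of the 3. The E2F1 peaks within 50 kb of MMP3 and of MMP10 were the same 7 peaks as those in and near MMP1, since these genes are neighbours.

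MMP7 (matrilysin, chr11:102391239-102401481, minus strand) is a small MMP made mainly by epithelial cells. It had the strongest Fra-1 peak of the 10 genes, at chr11:102434901-102435159, 33.6 kb upstream, with a pileup of 51, a fold enrichment of 17.5 and a −log10 q of 48.6. This fold enrichment was higher than that of 92.5% of all Fra-1 peaks, and an AP-1 site lay 16 bp from the summit. No other peak of the 3 TFs was called within 50 kb of MMP7.

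AP-1 sites lay close to the summits of several distal Fra-1 peaks, at a share near that of the genome. Outside the promoter windows of all annotated genes, 8 of 15 Fra-1 summits had a site within 50 bp (53.3%). Over all Fra-1 peaks outside promoter windows the share was 54.1%. The 61 bases centred on the summit are given for a distal peak each of MMP7, MMP3 and MMP13 that had a site there. The same 61 bases held no complete site at the other MMP3 peaks, the distal MMP10 peaks or the MMP14 peak. Sequences are read on the minus strand as for the genes, with AP-1 sites in capitals.
MMP7, 33.6 kb upstream, chr11:102435021-102435081: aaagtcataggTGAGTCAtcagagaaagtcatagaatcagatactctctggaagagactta
MMP3, 7.92 kb upstream, chr11:102722235-102722295: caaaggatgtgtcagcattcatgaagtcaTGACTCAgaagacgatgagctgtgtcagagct
MMP13, 40.7 kb upstream, chr11:102867126-102867186: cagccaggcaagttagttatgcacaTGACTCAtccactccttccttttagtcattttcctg

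MMP1, MMP3, MMP7, MMP10 and MMP13 belong to a cluster of 9 MMP genes on chromosome 11, all on the minus strand, which was also treated as 1 locus (chr11:102341239-102876461, 535 kb with 50 kb flanks). The locus held 10 Fra-1 peaks, 9 E2F1 peaks and no MYC peak. Fra-1 density was 18.7 peaks per Mb, 3.28 times the 5.70 per Mb of the genome. E2F1 density was 16.8 peaks per Mb, 1.38 times the genome's 12.2, and the genome held 1.60 MYC peaks per Mb. Fold enrichments in the locus ranged from 4.36 to 17.5 for Fra-1 (median 6.74) and from 3.53 to 16.7 for E2F1 (median 6.21).

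The peaks were not spread evenly over the cluster. The 91.1 kb from chr11:102631207 to chr11:102722345, around MMP10, MMP1 and MMP3, held 14 of the 19 peaks. The longest stretch without a peak was 160 kb, from chr11:102470730 to chr11:102631206, which contains MMP27, MMP8 and the start of MMP20. Of the cluster genes that are not among the 10, none had a promoter peak (MMP8, MMP12, MMP20 and MMP27). Within MMP20, which encodes enamelysin of tooth enamel, a Fra-1 peak (fold enrichment 14.8) and an E2F1 peak (5.91) had summits 1 bp apart.

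**Figure D3:**
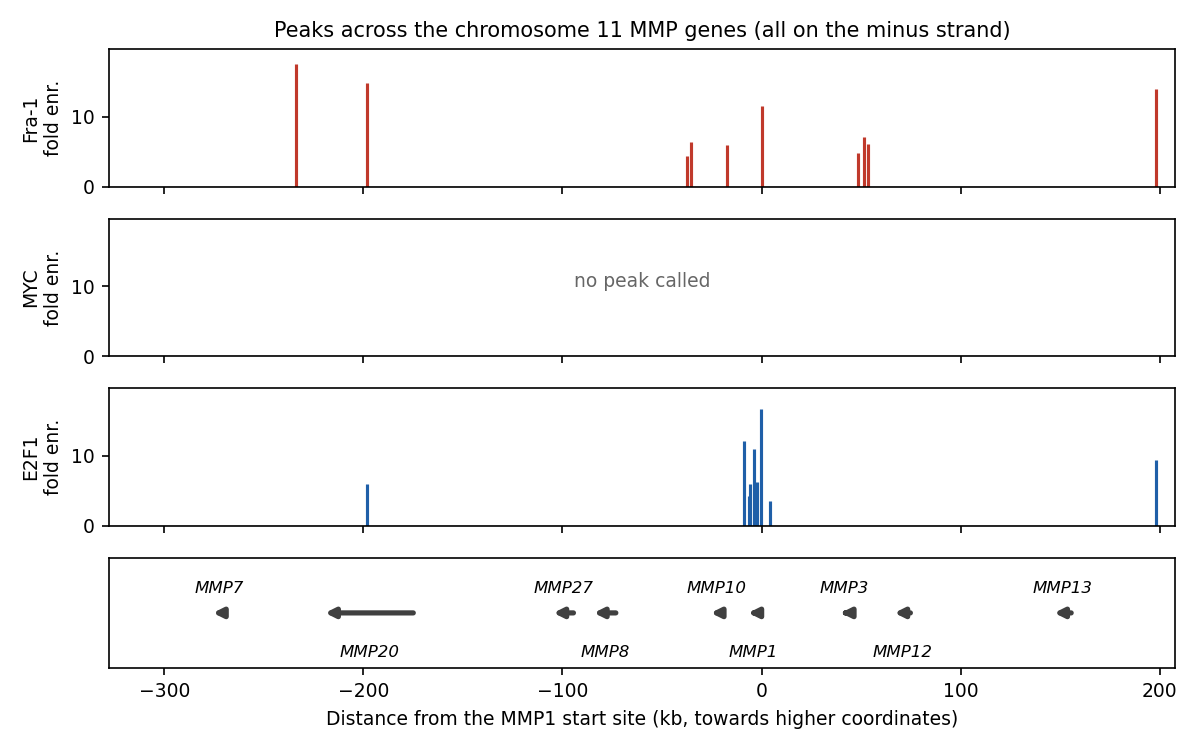
Peaks across the 9 MMP genes of chromosome 11, drawn at their summits with distance from the MMP1 TSS in kb on the horizontal axis and fold enrichment over input on the vertical axis; arrows show each gene and its direction. Peaks gather around MMP10, MMP1 and MMP3, and no MYC peak was called.

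The gelatinases MMP2 and MMP9 degrade type IV collagen of basement membranes and denatured collagens. MMP2 (chr16:55423612-55540603, plus strand) had no Fra-1 or MYC peak within 50 kb. Its only E2F1 peak, at chr16:55542867-55543178 with a fold enrichment of 11.8, lay 29.9 kb downstream of the canonical TSS in the promoter of LPCAT2. Thus no peak was assigned to MMP2 alone.

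MMP9 (chr20:44637547-44645200, plus strand) had no peak in the gene or its promoter. About 37.1 kb upstream, in the promoter of ZNF335, Fra-1 (fold enrichment 6.48), MYC (8.18 and 5.41) and E2F1 (21.4) were called. The E2F1 peak overlapped all of the others, whereas the Fra-1 peak overlapped only the MYC peak of 8.18. The only other peak within 50 kb was an E2F1 peak 15.2 kb upstream with a fold enrichment of 4.70.

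MMP14 (chr14:23305769-23318250, plus strand) encodes a membrane-bound MMP that cleaves collagen at the cell surface and activates pro-MMP2. It had the strongest E2F1 peak of the 10 genes, at chr14:23305546-23308757, with its summit 67 bp downstream of the TSS, a pileup of 72, a fold enrichment of 36.8 and a −log10 q of 102. This fold enrichment was higher than that of 95.0% of all E2F1 peaks. The peak was 3212 bp wide, and its local background of 0.981 was near the median of all E2F1 peaks. With a second peak 3.10 kb downstream (fold enrichment 4.97), E2F1 covered 24.9% of the gene, a share reached by 1.17% of 3670 genes of like length.

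Fra-1 and MYC were called past the 3′ end of MMP14 and not at its start. The Fra-1 peak at chr14:23320654-23320899, 2.49 kb past the gene end, had a fold enrichment of 9.19, an AP-1 site 30 bp from its summit and an overlapping E2F1 peak of 21.3. The MYC peak at chr14:23322360-23322531 had a fold enrichment of 8.76 and overlapped an E2F1 peak of 12.7. Of the further E2F1 peaks in the flanks, those in the promoters of SLC7A7, MRPL52 and LRP10 had fold enrichments up to 28.1. Another pair lay in no other promoter, 14.1 kb and 50.8 kb downstream of the TSS, with 6.92 and 17.6.

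TIMP1 (chrX:47441807-47446188, plus strand), a broad MMP inhibitor, was called for E2F1 alone. The peak at chrX:47441511-47442077 had its summit 18 bp upstream of the TSS, with a pileup of 38, a fold enrichment of 13.2 and a −log10 q of 32.4. The other E2F1 peaks lay 41.0 kb, 26.1 kb and 21.3 kb upstream, with fold enrichments of 4.72, 18.9 and 21.9, and the nearest of these was in the promoter of ARAF. No Fra-1 or MYC peak was called within 50 kb of TIMP1.

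TIMP2 (chr17:76849059-76921469, minus strand) inhibits MMPs and, together with MMP14, takes part in the activation of pro-MMP2. It had the most peaks of the 10 genes, with 11 of Fra-1, 8 of MYC and 15 of E2F1 in the gene and its flanks, which include the USP36 promoter. The gene body alone held 5, 3 and 7. These covered 1.87%, 1.28% and 4.93% of the body, shares reached by 0.520%, 0.356% and 1.81% of 3653 genes of like length. At 72411 bp TIMP2 is longer than each of the other genes except MMP2, at 116992 bp, which had 1 peak. At its start only E2F1 was called. The E2F1 peak at chr17:76921413-76921668 had its summit 17 bp upstream of the TSS, with a pileup of 41, a fold enrichment of 29.4 and a −log10 q of 62.4, and another lay 758 bp upstream (fold enrichment 20.2). The next 3 E2F1 peaks, up to 1.44 kb downstream, had fold enrichments of 5.20 to 8.07.

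The Fra-1 promoter call at TIMP2 did not concern this start. The peak at chr17:76869720-76869873 (fold enrichment 7.03) lay 51.7 kb downstream, at alternative starts within the gene, with an E2F1 peak of 6.02 over it. With canonical TSS only, the count of genes with a Fra-1 promoter peak was 2 (MMP1 and MMP10), against 7.30% of 19819 canonical promoters. This setting was chosen after seeing the data.

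All 3 TFs were called together at 7 stretches of sequence in these spans, 6 of them at TIMP2 and 1 at the ZNF335 promoter near MMP9. Within TIMP2, the stretch chr17:76858147-76858556 had fold enrichments of 15.0 (Fra-1), 11.05 (MYC) and 14.1 (E2F1), with Fra-1 and MYC summits 36 bp apart. A wide E2F1 peak (2396 bp, fold enrichment 33.2) contained 2 such stretches, and at the stronger, chr17:76879927-76880166, Fra-1 (11.4) and MYC (6.95) had summits 1 bp apart. Upstream of TIMP2, 8.22 kb from the TSS, Fra-1 (11.02), MYC (8.84) and E2F1 (24.1) were called at chr17:76929572-76929809, and all 3 again at chr17:76930367-76930460 under the same E2F1 peak. The remaining stretch lay in the promoter of USP36 past the 3′ end of TIMP2 (Fra-1 6.32, MYC 11.8, E2F1 24.4). These stretches are overlaps of peaks, and their summits can lie apart. At the 6 at TIMP2, Fra-1 and MYC summits were 1 to 184 bp apart, and Fra-1 and E2F1 summits 55 to 659 bp apart.

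The sequences at the strongest of these stretches in the gene are shown because they differ in the sites they hold. Each is 61 bases centred on the Fra-1 summit, read on the minus strand, with the AP-1 site TGACTCA and the E-box CACGTG in capitals. In the former an AP-1 site is followed by an E-box. The latter has an E-box and no exact match to the AP-1 site, although it holds the near match tgattca.
TIMP2, 63.2 kb downstream of the TSS, chr17:76858232-76858292: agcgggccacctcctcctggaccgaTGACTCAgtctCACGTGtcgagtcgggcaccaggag
TIMP2, 41.4 kb downstream of the TSS, chr17:76880005-76880065: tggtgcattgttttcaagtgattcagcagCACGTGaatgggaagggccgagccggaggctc

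**Figure D4:**
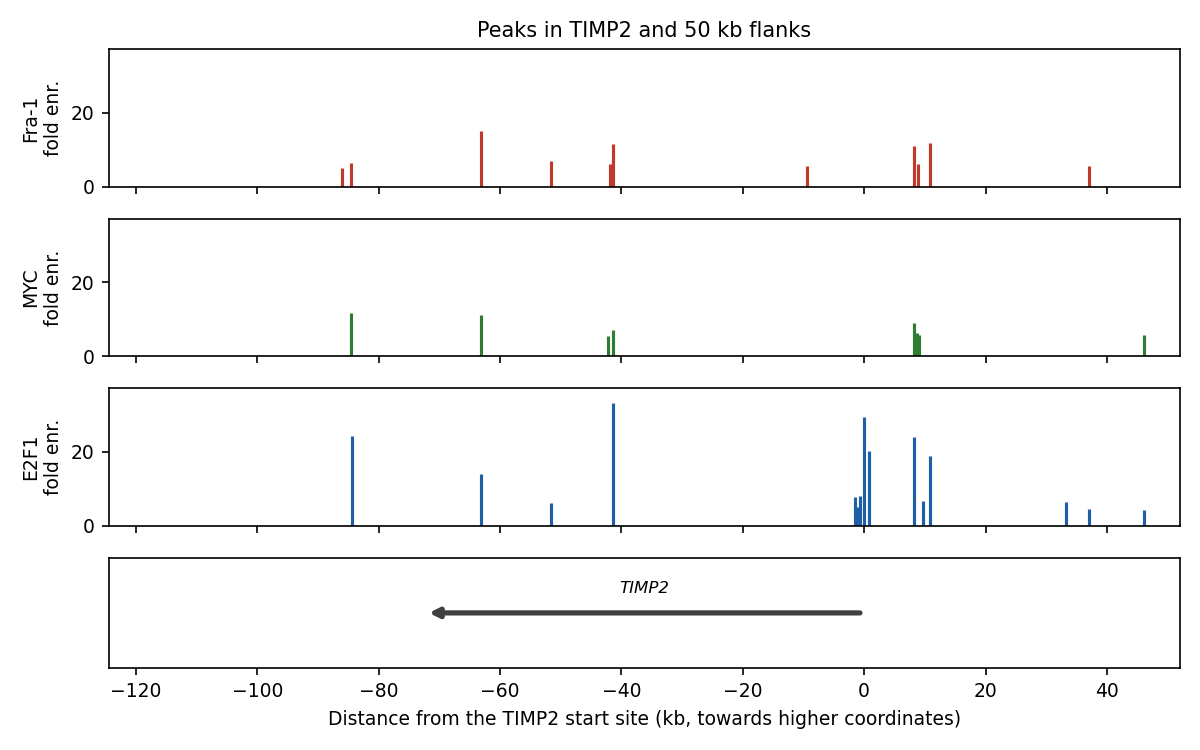
Peaks in TIMP2 and its 50 kb flanks, drawn at their summits with distance from the canonical TSS in kb on the horizontal axis (transcription runs to the left) and fold enrichment over input on the vertical axis. Only E2F1 has peaks at the start, whereas peaks of Fra-1, MYC and E2F1 overlap within the gene, upstream of it and past its end.

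The TIMP2 peaks also set the overlap between TFs for the whole set of genes. Of the 22 Fra-1 peaks, 7 (31.8%, 95% Wilson interval 16.4 to 52.7) overlapped a MYC peak, against 5.90% of all Fra-1 peaks. At TIMP2, with its flanks and the USP36 promoter included, 6 of 11 Fra-1 peaks overlapped MYC, and at the other genes 1 of 11. Overlap with E2F1 was found for 13 of the 22 (59.1%, 38.7 to 76.7), against 61.5% of all Fra-1 peaks, again with more at TIMP2 (9 of 11) than elsewhere (4 of 11). These intervals cover counting error only, and peaks of 1 gene are not independent.

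Sites at the summits were counted within 50 bp. An AP-1 site was present at 10 of the 22 Fra-1 summits (45.5%, 26.9 to 65.3), against 53.3% of all Fra-1 summits, with 5 of 11 at TIMP2 and 5 of 11 elsewhere. At the midpoints of the same peaks in place of their summits, the count was 6 of 22 (27.3%), against 51.2% of all Fra-1 peaks. An E-box was present at 4 of 11 MYC summits (36.4%, 15.2 to 64.6), against 16.8% of all. These 4 all lay in TIMP2 or its flanks, including the summit in the USP36 promoter. None of the 41 E2F1 summits had an E2F site, which allows a share of up to 8.57% by the same interval, and 1.68% of all E2F1 summits had one. All 11 MYC peaks overlapped an E2F1 peak, as did 96.1% of all MYC peaks.

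The promoter counts depended on how many peaks each list holds. When only the 4867 peaks of highest −log10 q were kept in each list, no Fra-1 promoter peak was left at the 10 genes, against 3.42% of all genes, and E2F1 was left at MMP1 and MMP14, against 25.7% of all genes. The 6 Fra-1 peaks that were left were the distal ones of MMP7, MMP13 and MMP14 and 3 at TIMP2. The MYC list is the shortest, so its counts did not change.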

How the data were processed

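The data were lists of ChIP-Seq peaks from LM2 cells, 1 library each for Fra-1, MYC and E2F1. No peak list of the EZH2 or input libraries was used here. The authors used Trimmomatic for trimming and Bowtie for alignment to hg19 with masked sequence, and retained unique alignments. Peaks were called by MACS2 (2.0.10.20120913) against a common input, with 0.01 as the q-value limit. Which bases were masked is not given, so any peaks missed in masked sequence could not be counted. The deposited signal is the fragment pileup at the summit, the deposited fold enrichment is its ratio to the local background with a pseudocount of 1, and the authors gave p- and q-values as −log10. A deposited interval file of the same peaks was not used.

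Genes were taken from GENCODE 44 mapped to GRCh37 and sequences from GRCh37. The annotation may differ from that of the study. Peaks were assigned to promoters (2 kb upstream to 2.5 kb downstream of any TSS), gene bodies and 50 kb flanks by an overlap of at least 1 bp. The local background was computed from pileup and fold enrichment. A percentile is the share of a TF's peaks with a lower fold enrichment. Genes of like length are those within 1.5 times a gene's length. Procedures were tested on simulated data. Named are the 10 genes, other family genes of the chromosome 11 cluster or with the same promoter TFs as one of the 10, and genes whose promoters hold a flank peak. Genes and lists were chosen with earlier results of these data known. Software was Python 3.11.15 with scipy 1.17.1, pandas 2.3.3, matplotlib 3.10.9 and numpy 2.4.6. Promoter sequences and site positions of some of the genes are not reported here.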

Additional observations from a re-analysis of the deposited data

How the results depend on the processing

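The alternatives were stricter peaks (−log10 q from 5 upwards, or fold enrichment from 5 upwards), lists of equal length, other windows, flanks, start sites and motif distances, assignment by summit, merged peaks and other overlap rules. Of 64 recomputed counts or shares, 54 were within 1.5 times the reported one, and 10 were not. With lists of equal length, genes with a promoter peak numbered 0 for Fra-1 (reported 3) and 2 for E2F1 (4), and genes with a Fra-1 peak within 50 kb numbered 4 (8). The chromosome 11 locus then held 3 Fra-1 peaks (10) and 1 E2F1 peak (9). Of the 6 Fra-1 peaks left, 1 overlapped an E2F1 peak (13 of 22) and 5 had an AP-1 site (10 of 22). With flanks of 20 kb, 5 genes had a Fra-1 peak (8). With a reciprocal overlap of 50%, 5 of 22 Fra-1 peaks overlapped E2F1 (13). At peak midpoints, 6 of 22 had an AP-1 site (10). Except for promoter peaks with lists of equal length and for midpoints, shares over all genes or all peaks are not given for these settings. The changed counts are therefore not read as traits of the 10 genes. MYC counts kept within these limits under every alternative run. No paired analysis was possible because each TF had 1 library. Without replicates, spread between cultures is unknown, and a gene without a called peak may be bound below the q-value cutoff at this depth.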

Other observations

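The other 18 genes of the family (MMP8, MMP11, MMP12, MMP15, MMP16, MMP17, MMP19, MMP20, MMP21, MMP23B, MMP24, MMP25, MMP26, MMP27, MMP28, TIMP3, TIMP4 and RECK, a membrane-anchored MMP inhibitor) were counted in the same way. A promoter peak was called for Fra-1 in 1 of them, for MYC in 1 and for E2F1 in 6, and 11 had no promoter peak of the 3 TFs. Of all protein-coding genes, 13.2% had a Fra-1, 17.8% a MYC and 61.3% an E2F1 promoter peak, while 37.8% had none. Within the gene and 50 kb on either side, 12 had a Fra-1 peak, 5 a MYC peak and 14 an E2F1 peak, against 55.8%, 39.5% and 83% of all genes. MMP19 was the gene with Fra-1 only, like MMP10. Its peak had a summit 81 bp upstream of the TSS, a pileup of 26 and a fold enrichment of 9.21, higher than the 5.92 of MMP10.

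Among the inhibitors, TIMP3 and RECK had E2F1 only, like TIMP1 and 35.8% of all genes, while TIMP4 had no promoter peak of any TF. The strongest E2F1 peak of TIMP3 lay 20 bp upstream of the TSS with a fold enrichment of 10.1, and that of RECK 104 bp upstream with 10.1. Fold enrichment at the start was thus 29.4 for TIMP2 and 13.2 for TIMP1, both above TIMP3 and RECK. The other genes with E2F1 only were MMP16, MMP17 and MMP25, at fold enrichments of 3.68, 20.02 and 9.71. Their summits lay 521 bp, 2279 bp and 12735 bp downstream of the canonical TSS, so the call at MMP25 rested on an alternative start. The difference between these genes was not tested, since there was 1 library per TF.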
